A study of Mus musculus with 5 samples.

Results

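Mast cells are granulated leukocytes that live in the dermis near vessels and nerves. They mature under KIT ligand, carry IgE on a high-affinity receptor, and store histamine together with proteases that are packed on proteoglycans in secretory granules. Mast cells of the skin belong to the connective tissue type, which is known for carboxypeptidase, chymase and tryptase, whereas other chymases mark mast cells of mucosal surfaces. Mast cells and dermal group 2 innate lymphoid cells (dILC2s) share the dermis and have been described as neighbours in it.

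The transcripts examined were 9 genes named by symbol for these functions, out of 47729 genes in the count table. They comprised 5 granule proteases (*Cpa3*, *Cma1*, *Mcpt4*, *Tpsb2* and *Tpsab1*), 3 surface receptor genes (*Kit*, *Fcer1a* and *Ms4a2*) and the histamine-synthesising enzyme *Hdc*. The libraries came from female mice on the C57BL/6 background, aged 8 to 13 weeks, and RNA was taken from freshly sorted skin cells without stimulation. There were 3 WT (B6) pools of 10 mice each (pools 5, 6 and 13) and 2 pools labelled RAG1-/- (B6) of 9 mice each by the methods of the study (pools 2 and 7), although the labels give 16 *Rag1*-/- mice in all. Mice without RAG1 cannot rearrange antigen receptor genes and lack mature T and B cells in every tissue, so that the mutation was not restricted to the sorted cells. The study defined dILC2s as viable CD45+CD90hi cells without CD2/CD3 signal, a gate that does not aim at mast cells. The cell type field of the labels reads innate lymphoid cells type 2 for the WT pools and type 3 for the *Rag1*-/- pools, while the other labels speak of dILC2s in both.

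The 3 WT libraries held 32939428 to 39477243 counts, against 8050562 in *Rag1*-/- pool 2 and 38922750 in *Rag1*-/- pool 7. Levels are given as CPM (counts per 1000000 counts of the library), and 3 counts, taken as the smallest readable level, correspond to 0.373 CPM in *Rag1*-/- pool 2 and to 0.0760 to 0.0911 CPM in the other pools. The transcript of *Rag1* itself was counted 4, 0 and 5 times in WT and 5 and 48 times in the pools labelled *Rag1*-/-. It was thus not lower under that label, but the WT counts were around the smallest readable level, so that a lower level could hardly have been seen. Groups are named here as labelled. The ILC2 markers were present in every library, with a sum over 12 genes of 1247 to 2305 CPM in WT and 3837 to 5751 CPM in *Rag1*-/-. Keratinocyte transcripts were also present, with a sum over 10 genes of 24490 to 35880 CPM in WT and 5706 to 14710 CPM in *Rag1*-/-, none of them at 0 in all pools. Of the ILC2 markers 5 of 12 tested were called as higher (*Arg1*, *Il13*, *Areg*, *Thy1* and *Il5*), where 3.57% of all genes were. So were 3 of 6 ILC3 markers tested (*Il17f*, *Il23r* and *Il22*) and 2 of 6 T cell markers tested (*Cd3g* and *Trac*). The ILC3 markers summed to 28.3 to 34.2 CPM in WT and 77.3 to 150 CPM in *Rag1*-/-. None of the fibroblast, endothelial or macrophage markers was called with edgeR. Among them, 1 endothelial marker had an unadjusted p-value under 0.05 (edgeR) and was called by DESeq2. *Rag1*-/- pool 2 stood apart by its depth, and results that rest on it are given with and without it.

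To show the DNA upstream of these genes before their levels, the 250 bases before an annotated transcription start were taken from RefSeq (GRCm38.p6), which had a window for 7 of the 9 genes. Of these, 5 are printed, from 3 proteases, from the receptor chain *Ms4a2* and from *Kit*, whose fold change had the opposite sign. *Kit* had 2 windows, of which the first was used. The RefSeq entries of *Cpa3* and *Ms4a2* end at 20242209 and 11623790, so that each reaches into the printed window. Each runs 5′ to 3′ on the strand of the gene, and capitals mark matches on either strand to the GATA word AGATAA, with its variant spellings TGATAA as well as AGATAG as well as TGATAG, or to the E-box word CATGTG or its palindromic relative CACGTG.
Cpa3, chr3:20242182-20242431, minus strand: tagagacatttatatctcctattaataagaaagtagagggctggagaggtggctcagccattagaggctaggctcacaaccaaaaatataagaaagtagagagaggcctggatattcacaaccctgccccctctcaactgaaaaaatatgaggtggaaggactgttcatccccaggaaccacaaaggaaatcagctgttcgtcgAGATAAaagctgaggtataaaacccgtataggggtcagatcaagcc
Cma1, chr14:55944676-55944925, minus strand: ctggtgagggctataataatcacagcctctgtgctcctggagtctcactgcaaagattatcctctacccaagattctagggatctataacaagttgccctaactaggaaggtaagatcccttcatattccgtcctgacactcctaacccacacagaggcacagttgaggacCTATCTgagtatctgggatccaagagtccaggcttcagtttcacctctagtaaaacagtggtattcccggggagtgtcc
Mcpt4, chr14:56062311-56062560, minus strand: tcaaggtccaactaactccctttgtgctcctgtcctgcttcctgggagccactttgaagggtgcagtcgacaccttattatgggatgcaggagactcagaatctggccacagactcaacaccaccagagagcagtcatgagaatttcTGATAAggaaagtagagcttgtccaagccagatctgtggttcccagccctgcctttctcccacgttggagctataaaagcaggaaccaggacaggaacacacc
Ms4a2, chr19:11623720-11623969, minus strand: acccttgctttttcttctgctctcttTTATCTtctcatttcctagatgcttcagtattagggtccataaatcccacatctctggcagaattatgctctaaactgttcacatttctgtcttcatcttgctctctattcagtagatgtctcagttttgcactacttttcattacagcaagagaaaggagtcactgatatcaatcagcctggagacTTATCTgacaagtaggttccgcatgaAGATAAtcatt
Kit, chr5:75574737-75574986, plus strand: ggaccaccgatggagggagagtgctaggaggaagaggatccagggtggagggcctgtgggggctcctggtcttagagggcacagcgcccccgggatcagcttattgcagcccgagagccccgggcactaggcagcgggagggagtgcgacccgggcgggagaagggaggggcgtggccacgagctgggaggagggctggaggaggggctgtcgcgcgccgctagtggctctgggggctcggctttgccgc
GATA factors and the E-box factor MITF are known regulators of mast cell genes. A GATA word occurred in 6 of the 7 windows, and in 26.5% of all 32851 windows of the same length in the table. The *Hdc* window (126618679 to 126618928), which held such a word, lay wholly within the RefSeq entry of *Hdc*, which ends at 126624025. The count of windows is thus not one of DNA outside the genes alone. The *Cpa3* word lay 46 to 41 bases before the start of its window's transcript and that of *Mcpt4* 103 to 98 bases before it. *Ms4a2* had 3 words, not all of them outside its RefSeq entry. An E-box word occurred in 1 of the 7 windows, that of *Fcer1a*, against 17.6% of all windows. The *Kit* window held none of the 6 words, which says only that these letters are absent from these 250 bases.

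Across the 9 genes, protease transcripts were present in every pool at low levels, and those of *Kit* were higher in both *Rag1*-/- pools than in any WT pool. None of the 9 genes passed the test between genotypes. A gene was called at an adjusted p-value under 0.05 (edgeR's quasi-likelihood test over 19011 genes, Benjamini-Hochberg adjustment) with an absolute log2 fold change above 1. All 9 genes passed the filter on low counts and 0 were called, where 5.73% of all genes tested were called. At an unadjusted p-value under 0.05 there were 2 of the 9, *Kit* and *Ms4a2*, against 26.4% of all genes tested. With DESeq2, the same 2 were called, *Kit* as higher and *Ms4a2* as lower in *Rag1*-/-, against 14.3% of its genes (6.99% higher and 7.32% lower). The median log2 fold change over the 9 genes was -0.48, and that over all genes tested was 0.02.

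**Figure D1:**
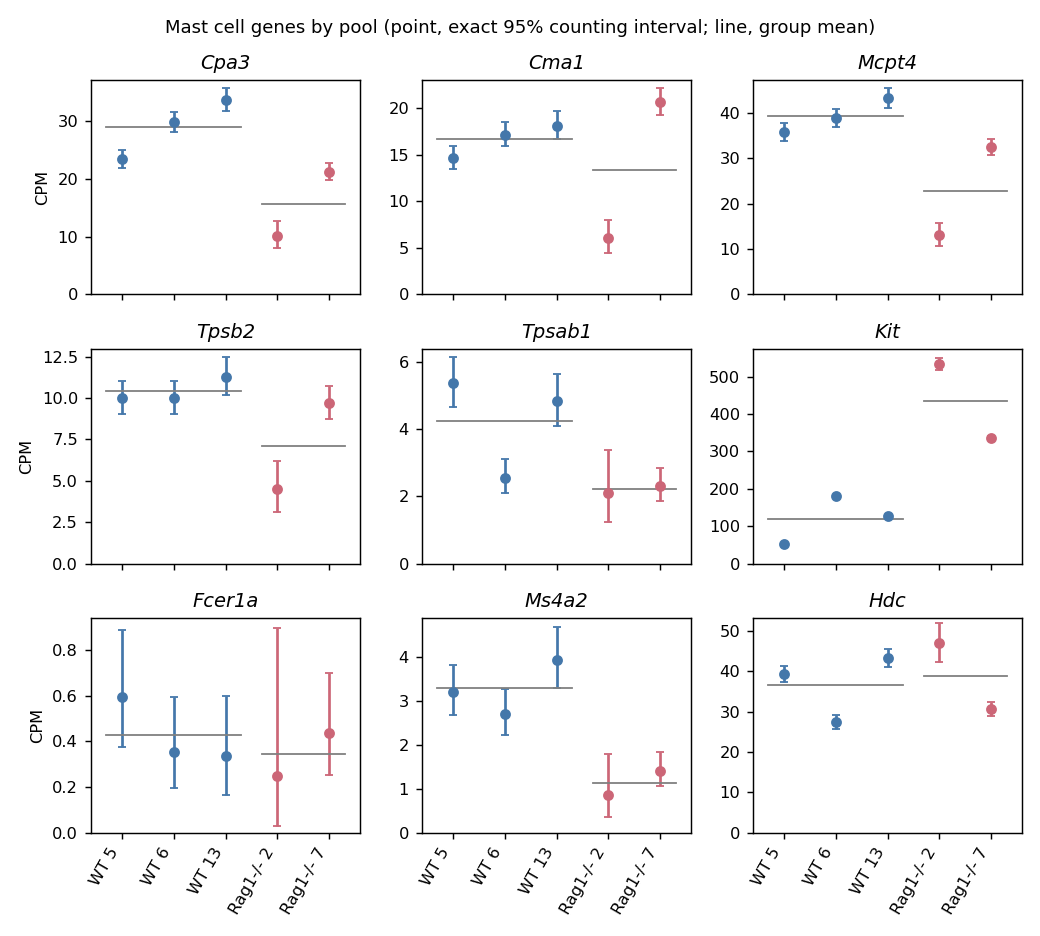
CPM of each of the 9 genes (vertical axis, linear) in the 3 WT pools (blue) and the 2 *Rag1*-/- pools (red), with exact 95% Poisson intervals that cover counting error only and the group mean as a line. *Rag1*-/- pool 2 was the lowest pool for 7 of the 9 genes, while *Kit* and *Hdc* were highest there.

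The granule proteases are the most mast cell-restricted of these transcripts. *Cpa3* (chromosome 3 of GRCm38, 20215620 to 20242181) encodes the carboxypeptidase stored in mast cell granules. It had 23.5, 29.8 and 33.8 CPM in WT pools 5, 6 and 13, and 10.2 and 21.2 CPM in *Rag1*-/- pools 2 and 7. Both *Rag1*-/- pools were below every WT pool, pool 7 only by a small step under WT pool 5. The log2 fold change came to -0.82 (standard error, SE, 0.35, adjusted p = 0.193, edgeR's quasi-likelihood test), which did not pass.

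The chymases *Mcpt4* and *Cma1* are serine proteases of the connective tissue mast cell granule and lie in a cluster on chromosome 14 (*Mcpt4* 56059744 to 56062310, *Cma1* 55941453 to 55944661). *Mcpt4* had 35.7, 38.8 and 43.2 CPM in WT and 13.04 and 32.4 CPM in *Rag1*-/- pools 2 and 7. The pattern was that of *Cpa3*, with *Rag1*-/- pool 2 far below the other pools (log2 fold change -0.72, SE 0.38, adjusted p = 0.276, edgeR). *Cma1* had 14.7, 17.2 and 18.2 CPM in WT and 6.09 and 20.7 CPM in *Rag1*-/-. The *Rag1*-/- pools lay on either side of the WT pools, so that the groups overlapped (log2 fold change -0.23, SE 0.47, adjusted p = 0.805, edgeR). Without *Rag1*-/- pool 2 the fold change of *Cma1* was positive, 0.38 (adjusted p = 0.336).

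The tryptases *Tpsb2* and *Tpsab1* lie next to each other on chromosome 17 (*Tpsb2* 25366550 to 25368094, *Tpsab1* 25343245 to 25345562). *Tpsb2* encodes the main tryptase of mouse mast cells, MCP-6. It was counted 388, 394 and 372 times in WT, or at 9.98 to 11.3 CPM, and had 4.47 and 9.69 CPM in *Rag1*-/- pools 2 and 7. Pool 7 differed from the lowest WT pool by less than the counting interval of either, and the fold change of -0.48 (SE 0.37, adjusted p = 0.462, edgeR) became -0.03 without *Rag1*-/- pool 2. *Tpsab1* encodes MCP-7, which C57BL/6 mice are known not to make as a protein because of a splice-site change, and RefSeq lists it as a transcribed pseudogene on this genome. Its transcript was nevertheless counted in every pool, at 5.36, 2.56 and 4.83 CPM in WT and 2.11 and 2.31 CPM in *Rag1*-/-. WT pool 6 was close to the *Rag1*-/- pools, and the log2 fold change came to -0.89 (SE 0.44, adjusted p = 0.247, edgeR).

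Reads of 50 bases can be hard to assign among paralogs. No word of 50 bases in the GENCODE M21 transcripts of *Cpa3*, *Tpsb2*, *Tpsab1*, *Kit* or *Fcer1a* occurred unchanged in a transcript of another gene. The share was 5.38% for *Cma1* (all with *Gm48934*), 5.48% for *Mcpt4* (all with the chymase *Cma2*), 2.10% for *Ms4a2* and 0.141% for *Hdc*. Reads with mismatches were not considered, so that the chymase values are the less certain ones.

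Summed, the 5 proteases had 89.2, 98.3 and 111 CPM in WT, and 35.9 (95% interval 31.9 to 40.3) and 86.3 CPM (83.4 to 89.3) in *Rag1*-/- pools 2 and 7. The *Rag1*-/- pools thus differed from each other more than the WT pools did, and the interval of pool 7 overlapped that of WT pool 5 (86.3 to 92.2). The sum in pool 2 was 0.416 of that in pool 7 (exact 95% interval 0.367 to 0.469), while the highest WT pool was 1.25 times the lowest. By gene, the ratio of pool 2 to pool 7 was 0.294 (0.216 to 0.392) for *Cma1*, 0.403 (0.327 to 0.492) for *Mcpt4*, 0.462 (0.318 to 0.651) for *Tpsb2* and 0.480 (0.378 to 0.603) for *Cpa3*. *Tpsab1* was the exception with 0.913 (0.510 to 1.54), an interval that includes equal levels. These intervals cover counting error alone and say nothing of the spread between pools of mice. In bulk RNA, fewer mast cells and less of these transcripts per cell cannot be told apart.

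The makeup of the protease counts varied less between pools than their sum. *Mcpt4* made up 36.3% to 40.0% of the 5 protease counts over the pools, *Cpa3* 24.6% to 30.3% and *Tpsb2* 10.1% to 12.5%. In *Rag1*-/- pool 2, where the sum was lowest, these shares were 36.3%, 28.4% and 12.5%. The share of *Cma1* was 16.3% to 17.5% in 4 pools and 24.0% in *Rag1*-/- pool 7. As a ratio to *Mcpt4*, *Cma1* was 0.411 to 0.467 in those 4 pools and 0.639 in *Rag1*-/- pool 7. The share of *Tpsab1* was small and ranged from 2.60% to 6.01%, and the pools with a high share included WT pool 5 and *Rag1*-/- pool 2.

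**Figure D2:**
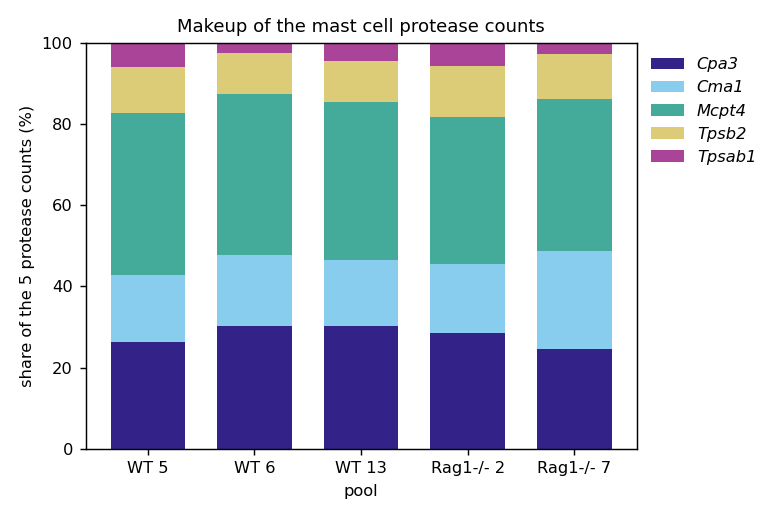
Share of each protease (vertical axis, percent of the counts on the 5 protease genes) in the 3 WT and 2 *Rag1*-/- pools, as stacked bars. The segment of *Mcpt4* spans 36.3% to 40.0%, that of *Cma1* is widest in *Rag1*-/- pool 7 (24.0%), and that of *Tpsab1* runs from 2.60% to 6.01%.

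The receptor genes separated into *Kit* and the IgE receptor. *Kit* (chromosome 5, 75574916 to 75656722) encodes the receptor for KIT ligand, on which mast cells depend, and which melanocytes, progenitors and some innate lymphoid cells also carry. It had 52.9, 179 and 127 CPM in WT and 534 and 336 CPM in *Rag1*-/- pools 2 and 7. Both *Rag1*-/- pools were above every WT pool, and pool 2, the lowest for the proteases, was the highest for *Kit*. Its log2 fold change of 1.88 (SE 0.48, adjusted p = 0.0627 by edgeR) missed the threshold, whereas DESeq2 called it (1.84, adjusted p = 0.00171). In edgeR it passed when low counts were not filtered (1.80, adjusted p = 0.000133, where 3.87% of the genes were called as higher) and with at least 10 counts in every library (1.84, adjusted p = 0.0452, where 6.06% were).

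The IgE receptor is built from an alpha chain that binds IgE (*Fcer1a*), a beta chain that amplifies the signal (*Ms4a2*) and a gamma chain shared with other Fc receptors. *Ms4a2* (chromosome 19, 11615523 to 11623719) had 3.22, 2.71 and 3.95 CPM in WT and 0.870 and 1.41 CPM in *Rag1*-/-, the latter from 7 and 55 counts. The groups did not overlap, and the log2 fold change came to -1.43 (SE 0.44, adjusted p = 0.0999 with edgeR, 0.0265 with DESeq2). *Fcer1a* (chromosome 1, 173221284 to 173227214) was barely detected, from 23, 14 and 11 counts in the WT pools and from 2 and 17 in *Rag1*-/-, or 0.248 to 0.593 CPM. The count in *Rag1*-/- pool 2 was under the smallest readable level, and a difference was not detectable at this depth (log2 fold change -0.18, SE 0.70, adjusted p = 0.910, edgeR). The interval of *Fcer1a* in pool 2 was 0.0301 to 0.897 CPM, which spans all other pools.

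*Hdc* (chromosome 2, 126593667 to 126619299) encodes histidine decarboxylase, which makes histamine in mast cells and in basophils and other myeloid cells. It had 39.3, 27.4 and 43.3 CPM in WT and 46.95 and 30.7 CPM in *Rag1*-/- pools 2 and 7. The pools of the genotypes overlapped, with the highest value in *Rag1*-/- pool 2, where the proteases were lowest. The log2 fold change came to 0.11 (SE 0.27, adjusted p = 0.849, edgeR), and it was -0.18 without *Rag1*-/- pool 2. As a ratio to *Cpa3*, *Hdc* was 0.918 to 1.67 in WT and 1.45 in *Rag1*-/- pool 7, and 4.61 in *Rag1*-/- pool 2.

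Both *Rag1*-/- pools were below every WT pool for 5 of the 9 genes (*Cpa3*, *Mcpt4*, *Tpsb2*, *Tpsab1* and *Ms4a2*), where this held for 24.0% of all genes tested. They were above every WT pool for 1 gene, *Kit*, against 21.9% of all genes. With *Rag1*-/- pool 7 left out, *Cpa3*, *Cma1*, *Mcpt4* and *Tpsb2* were called as lower, with log2 fold changes of -1.57, -1.51, -1.65 and -1.28 (adjusted p = 0.0275, 0.0261, 0.0144 and 0.0439, edgeR), where 7.98% of all genes were called as lower. That fit has *Rag1*-/- pool 2 alone in its group and assumes that it varies like the WT pools. With *Rag1*-/- pool 2 left out, the fold changes of these 4 genes were -0.38, 0.38, -0.20 and -0.03, and 0 genes of the whole table were called (5200 at an unadjusted p-value under 0.05, edgeR). No gene of the table was called either when WT pool 5, 6 or 13 was left out (3521, 3735 and 3874 at an unadjusted p-value under 0.05), so that the loss of all calls was not particular to *Rag1*-/- pool 2. The size of the group difference in these 4 proteases thus rested on *Rag1*-/- pool 2. Without it, *Tpsab1* was at -0.80, *Kit* at 1.55 and *Ms4a2* at -1.14, each with the same sign as in all pools.

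**Figure D3:**
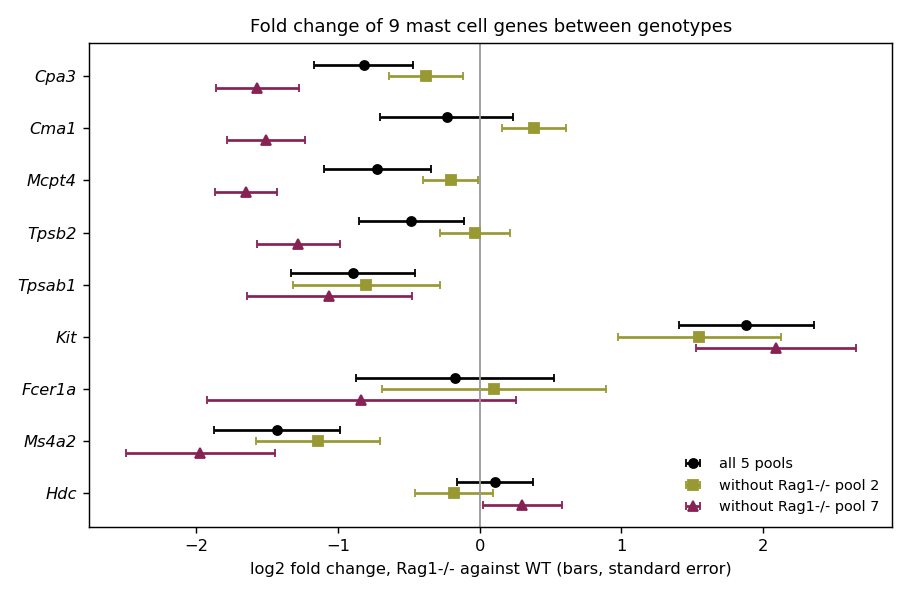
Log2 fold change of *Rag1*-/- against WT (horizontal axis, 0 for no difference) with its standard error for each of the 9 genes, from all 5 pools (black circles), without *Rag1*-/- pool 2 (olive squares) and without *Rag1*-/- pool 7 (purple triangles), each by edgeR. *Cpa3*, *Cma1*, *Mcpt4* and *Tpsb2* lie between -1.65 and -1.28 without pool 7 and between -0.38 and 0.38 without pool 2, while *Kit* lies between 1.55 and 2.09 in the 3 fits.

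Divided by the transcript length in the deposited table, levels can be compared between genes. In WT the order of the mean levels was *Mcpt4* with 39.6 ± 3.80 CPM per kilobase (SD, n = 3), *Kit* with 22.9 ± 12.1, *Cpa3* with 20.0 ± 3.59, *Cma1* with 15.5 ± 1.68, *Hdc* with 15.3 ± 3.45, *Tpsb2* with 9.64 ± 0.696, *Tpsab1* with 3.68 ± 1.29, *Ms4a2* with 1.38 ± 0.260 and *Fcer1a* with 0.428 ± 0.144. The pools of *Kit* and *Cpa3* overlapped, as did those of *Cpa3* and *Cma1* and those of *Cma1* and *Hdc*. Within pools, *Cpa3* was above *Cma1* in each WT pool, whereas the order of *Kit* and *Cpa3* and that of *Cma1* and *Hdc* changed between WT pools. In *Rag1*-/- *Kit* came first with 83.0 ± 26.7 CPM per kilobase (SD, n = 2), followed by *Mcpt4* with 23.0 ± 13.8 and *Hdc* with 16.2 ± 4.80. *Cma1* with 12.5 ± 9.63 and *Cpa3* with 10.8 ± 5.39 came next, then *Tpsb2* with 6.55 ± 3.41, *Tpsab1* with 1.91 ± 0.123, *Ms4a2* with 0.477 ± 0.161 and *Fcer1a* with 0.343 ± 0.133. From *Mcpt4* to *Tpsb2*, and for *Ms4a2* and *Fcer1a*, neighbours differed by less than their spread between pools. Within pools, *Cpa3* was above *Tpsb2* and *Ms4a2* above *Fcer1a* in both *Rag1*-/- pools, the latter from few counts in pool 2. From *Mcpt4* to *Cpa3* the order of neighbours changed between the *Rag1*-/- pools. *Mcpt4* was the highest protease and *Tpsab1* the lowest in each of the 5 pools.

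*Kit* and the proteases were set beside transcripts of all leukocytes, which mast cells and ILCs share. The summed level of 22 pan-leukocyte genes was 941 to 2266 CPM in WT and 6364 to 7274 CPM in *Rag1*-/-, with 16 of 21 genes tested called as higher, where 3.57% of all genes were, and none called as lower. *Kit* was lowest in WT pool 5 and highest in *Rag1*-/- pool 2, as this sum was, with 56.3, 81.4 and 56.1 counts per 1000 pan-leukocyte counts in WT and 73.4 and 52.8 in *Rag1*-/-. Its ratio to *Ptprc*, which encodes CD45, was 0.373 to 0.539 in the 5 pools, although *Kit* itself differed by up to 3.39 times among the WT pools. The proteases did not, with 94.9, 44.6 and 49.1 counts per 1000 pan-leukocyte counts in WT and 4.94 and 13.6 in *Rag1*-/-. Among keratinocyte markers, which were lower in *Rag1*-/- pool 2 than in any other pool, 3 of 10 were called as lower, where 2.16% of all genes were. The part of these lists in the values of the mast cell genes was not tested.

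When the libraries were scaled on the pan-leukocyte genes, the log2 fold change of *Kit* was -0.03 (adjusted p = 0.965, edgeR). All 5 proteases, *Ms4a2* and *Hdc* were then called as lower, with log2 fold changes of -2.34 to -3.18 for the proteases, -3.59 for *Ms4a2* and -2.11 for *Hdc*. This scaling called 68.2% of all genes as lower and shifted all genes by a median of -2.15. Relative to that shift *Kit* was higher and the median of the 9 genes, -2.64, was lower.

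**Figure D4:**
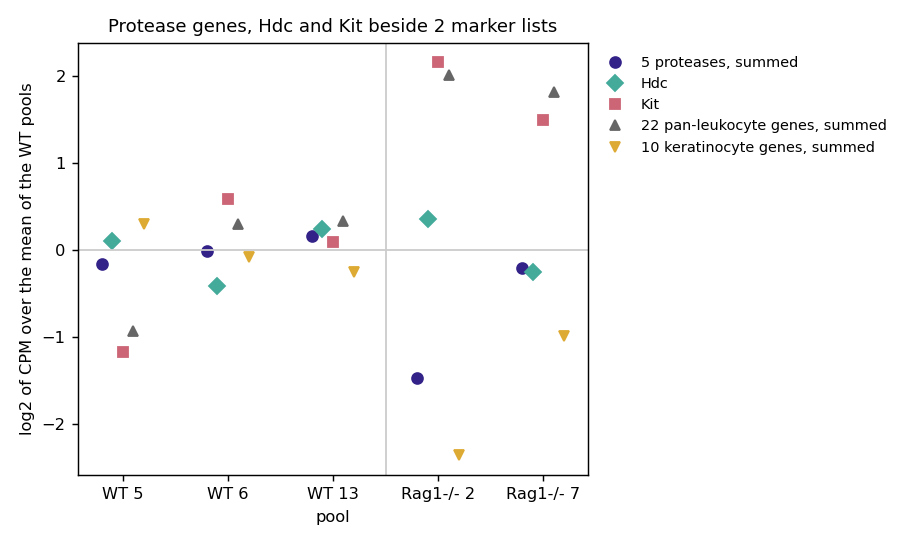
Log2 of CPM over the mean of the WT pools (vertical axis) in each pool for the 5 proteases summed, *Hdc*, *Kit*, 22 pan-leukocyte genes summed and 10 keratinocyte genes summed, with points set apart sideways for legibility. *Kit* and the pan-leukocyte sum lie close together in every pool, and the protease sum is lowest in *Rag1*-/- pool 2 (35.9 CPM), as is the keratinocyte sum (5706 CPM).

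Other cells that could carry some of these genes were examined by their markers. The basophil granule proteases *Mcpt8* and *Prss34* had at most 4 counts in any library. Of 6 basophil markers 4 were tested and 1 was called as higher, where 3.57% of all genes were. This was *Il3ra*, a receptor chain for IL-3 that other cells also carry (log2 fold change 1.54, adjusted p = 0.0306, edgeR). Of the 4 tested, 2 had a positive and 2 a negative fold change. *Cd200r3* had 0.928 to 2.155 CPM in WT and 0.248 and 0.591 CPM in *Rag1*-/- pools 2 and 7, from 2 and 23 counts. Its log2 fold change was -1.49 (SE 0.68, adjusted p = 0.218, edgeR). Of 7 melanocyte markers, all 7 had a negative fold change and none was called (0 with DESeq2 and 0 at an unadjusted p-value under 0.05), with a sum of 58.1 to 82.8 CPM in WT and 46.1 to 50.9 CPM in *Rag1*-/-. By gene the picture was mixed. *Pmel*, a melanosome gene, had 8.44 to 15.4 CPM in WT and 15.9 and 5.70 CPM in *Rag1*-/- pools 2 and 7. It was the only melanocyte marker that was highest in pool 2, where *Kit* was highest. *Sox10* was lowest in that pool, with 0.994 CPM against 11.4 to 19.4 CPM in the other pools. The part of melanocytes in the *Kit* values was not tested. Among the chymases of mucosal mast cells, *Mcpt1* and *Mcpt2* had at most 4 counts in any library and *Mcpt9* had 0 in all. The smallest readable level of 3 counts corresponds to 0.0760 CPM in the deepest library and to 0.373 CPM in *Rag1*-/- pool 2. *Ctsg*, the cathepsin G gene, had 0.497 to 0.988 CPM, and *Tpsg1*, a membrane tryptase gene, had 1 count in *Rag1*-/- pool 2 and 0.899 to 2.14 CPM in the others. Neither passed the test.

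The remaining genes of mast cell function were described from lists by role. Of 8 genes for granule and amine storage, 1 was called as higher and none as lower, where 3.57% and 2.16% of all genes were. This was *Srgn*, which encodes the proteoglycan core of granules in mast cells and lymphocytes alike (109, 255 and 289 CPM in WT, 805 and 972 CPM in *Rag1*-/-, log2 fold change 2.07, SE 0.40, adjusted p = 0.0368, edgeR). *Slc18a2*, the vesicular amine transporter that loads histamine, had 6.52 to 10.1 CPM in WT and 8.09 to 9.81 CPM in *Rag1*-/-, overlapping between the genotypes. *Ctsd* and *Cd63*, encoding a lysosomal protease and a granule membrane protein, overlapped as well and had fold changes of -0.18 and -0.14.

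Among 8 further mast cell receptors, 7 were tested and none was called (1 at an unadjusted p-value under 0.05, and 1 with DESeq2, *Mrgprb1*). *Mrgprb1* and *Mrgprb2* encode related receptors that are largely restricted to mast cells, of which that of *Mrgprb2* is known to respond to cationic peptides and drugs. They had 9.85 to 11.7 and 1.73 to 2.91 CPM in WT, and 3.73 to 5.83 and 0.994 to 1.21 CPM in *Rag1*-/-. The fold changes were -1.11 for *Mrgprb1* (SE 0.32, adjusted p = 0.0824) and -1.04 for *Mrgprb2* (SE 0.46, adjusted p = 0.209, edgeR). For both receptors, each *Rag1*-/- pool was below every WT pool. *Il1rl1*, the IL-33 receptor that mast cells and ILC2s share, had 8.17, 52.1 and 31.8 CPM in WT and 161 and 40.4 CPM in *Rag1*-/- and did not pass (adjusted p = 0.211, edgeR).

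Of 12 genes that signal below the IgE receptor, 4 were called as higher and none as lower, where 3.57% and 2.16% of all genes were, with a median log2 fold change of 1.07. The pan-leukocyte genes, of which 16 of 21 were called as higher, had a median of 2.00, and their part in this list was not tested. The 4 genes called below the IgE receptor were *Fyn* (1.42), *Lat* (2.17), *Lat2* (1.54) and *Inpp5d* (1.74), a kinase, 2 adaptors and a lipid phosphatase that lymphocytes use as well. The kinases *Lyn*, *Syk* and *Btk* did not pass with edgeR. DESeq2 called 6 of the 12 as higher, *Lyn* among them, where 6.99% of its genes were. *Lyn* had 16.7 to 51.2 CPM in WT and 124 and 137 CPM in *Rag1*-/- (log2 fold change 1.77, adjusted p = 0.0611 with edgeR, 0.00234 with DESeq2). The gamma chain *Fcer1g* had 12.01 to 21.98 CPM in WT and 20.6 to 30.4 CPM in *Rag1*-/-, with overlap. Of 7 genes for KIT ligand and transcription factors of mast cells, 6 were tested and 1 was called, as lower, where 2.16% of all genes were. This was *Kitl*, the KIT ligand made by keratinocytes and stromal cells (86.4, 70.5 and 79.7 CPM in WT, 30.4 and 40.5 CPM in *Rag1*-/-, log2 fold change -1.11, SE 0.22, adjusted p = 0.0373, edgeR). *Gata2*, a factor of mast cells and other cells, had 10.6 to 17.8 CPM in WT and 5.84 to 7.22 CPM in *Rag1*-/- (log2 fold change -0.97, adjusted p = 0.123, edgeR). DESeq2 called 2 genes of this list as lower, *Kitl* and *Gata2* (for *Gata2* log2 fold change -1.003, adjusted p = 0.0433), where 7.32% of its genes were. Of the 6 genes tested, 4 had a negative and 2 a positive fold change. *Tal1* and *Mitf* were at -1.04 and -0.69 (adjusted p = 0.161 and 0.216, edgeR). *Stat5a* and *Stat5b*, which act below KIT and cytokine receptors, had fold changes of the other sign, with 66.1 to 72.7 and 51.5 to 54.8 CPM in WT and 102 to 140 and 65.9 to 89.9 CPM in *Rag1*-/-. Their log2 fold changes were 0.85 (adjusted p = 0.0495) and 0.59 (adjusted p = 0.114, edgeR), under the fold threshold. Of 7 genes for lipid mediators, 1 was called by edgeR, as lower, where 2.16% of all genes were. This was *Pla2g4a*, the phospholipase that frees arachidonic acid (39.1 to 46.3 CPM in WT, 10.9 and 17.9 CPM in *Rag1*-/-, log2 fold change -1.48, adjusted p = 0.0333, edgeR). DESeq2 called 2 as lower, *Pla2g4a* and *Ptgs1*, where 7.32% of its genes were. *Ptgs1* had 232, 169 and 125 CPM in WT and 34.0 and 88.7 CPM in *Rag1*-/- (log2 fold change -1.46, adjusted p = 0.103 with edgeR, 0.0104 with DESeq2). *Hpgds* and *Alox5*, enzymes of prostaglandin D and leukotriene synthesis, had fold changes of 0.01 and 0.58 and did not pass.

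**Figure D5:**
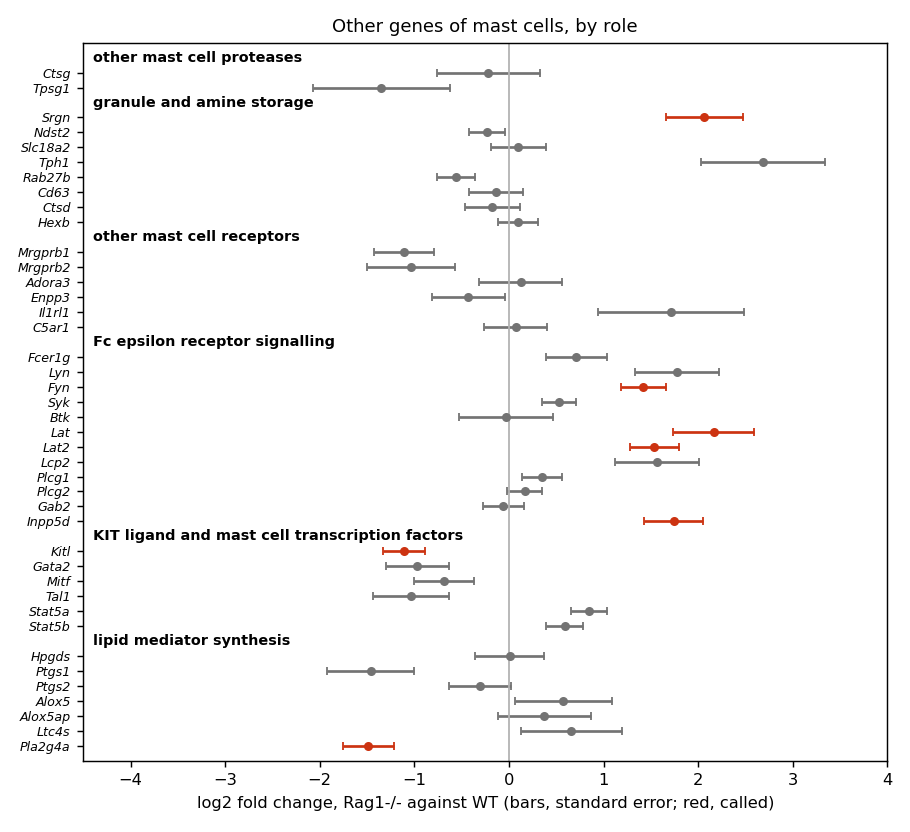
Log2 fold change of *Rag1*-/- against WT (horizontal axis) with its standard error for other genes of mast cells, grouped by role, with called genes in red and the others in grey. *Mrgprb8*, with 13, 13 and 0 counts in WT and 0 in *Rag1*-/-, is not drawn, and the called genes are *Srgn*, *Fyn*, *Lat*, *Lat2* and *Inpp5d* on the right and *Kitl* and *Pla2g4a* on the left.

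The genes whose levels over the 5 pools were most like the mean of the 9 genes were ranked by the root mean square difference of log2 CPM, each gene centred on its own mean. The 8 nearest were *Bid*, *Inafm2*, *Gm26549*, *Gm37305*, *5031439G07Rik*, *Mettl9*, *Insig1* and *Snn*, at differences of 0.0354 to 0.0490. None of them was a gene of the lists described above. The 9 genes themselves lay at unlike distances from *Cpa3* by this measure. *Mcpt4*, *Tpsb2* and *Cma1* were at 0.120, 0.197 and 0.304, *Ms4a2* at 0.347, *Tpsab1* at 0.532, *Fcer1a* at 0.548, *Hdc* at 0.782 and *Kit* at 1.61. From the mean of the 5 proteases, of which they are part, *Tpsb2* was at 0.0778, *Mcpt4* at 0.118 and *Tpsab1* at 0.433, while *Kit* was at 1.58. The mean of the 9 genes joins the protease and *Kit* patterns, so that genes near it need not resemble any single member.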

How the data were processed

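Sorted dILC2s of 3 WT and 2 *Rag1*-/- pools were sequenced by the authors (single reads of 50 bases). Per the labels, reads were aligned to GRCm38 with STAR 2.5 and assigned with featureCounts 1.5.0-p1, and the authors deposited raw counts per gene. The methods and the labels name different releases of the annotation, and whether reads were counted by strand is not given in the sources used here. The authors also deposited a normalized signal, the counts divided by a size factor per library. The raw counts were used throughout. Genes were filtered with filterByExpr, scaled by TMM and tested between genotypes with edgeR 4.0.16 (R 4.3.3, quasi-likelihood test, Benjamini-Hochberg adjustment over 19011 genes). Calls needed both an adjusted p-value under 0.05 and a log2 fold change beyond 1 in either direction. Standard errors were taken from the fold change and the F statistic. For each gene, 3 pools against 2 allow 10 splits, so that an exact test could not go below p = 0.1. Poisson intervals are at 95% and cover counting error only. The symbol *Cd37* had more than 1 row, and the row with the most counts was used.

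Alternatives were DESeq2 1.42.0, limma 3.58.1 on log2(signal + 1), RLE scaling, library size alone, scaling on 22 pan-leukocyte genes, leaving out the filter, requiring 10 counts in each pool, thinning to 8050562 counts, and each pool left out. The 9 genes and all lists were chosen with earlier results of these data known. Genes named are the 9, the called genes of each list or otherwise up to 3 with the highest mean CPM, *Rag1* and the 8 nearest by pattern. The further genes named (*Ptprc*, *Slc18a2*, *Mrgprb1*, *Mrgprb2*, *Il1rl1*, *Fcer1g*, *Gata2*, *Tal1*, *Mitf*, *Stat5a*, *Stat5b*, *Lyn*, *Syk*, *Btk*, *Cd200r3*, *Pmel*, *Sox10*, *Ptgs1*, *Hpgds*, *Alox5*, *Tph1* and the granule proteases of other cells) were picked after their values were seen. Promoter windows came from RefSeq and transcripts from GENCODE M21. No batch is named in the labels.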

Additional observations from a re-analysis of the deposited data

How the results depend on the processing

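The number of the 9 genes called was 0 with all 5 pools and edgeR. It was 2 with DESeq2, 1 without a filter, 1 with at least 10 counts in every library (7 genes had a value) and 7 with scaling on the pan-leukocyte genes. With 1 pool left out it was 0 to 4. Over the whole table, 1090 genes were called (679 higher, 411 lower), 2454 with DESeq2, 12977 with scaling on the pan-leukocyte genes, 2645 without a filter, and 0 to 2409 with 1 pool left out (2409 without *Rag1*-/- pool 7, and 0 without any other pool). The share of higher among called genes was moved by DESeq2 (1198 higher, 1256 lower), by leaving out the filter (1157 higher, 1488 lower), by leaving out *Rag1*-/- pool 7 (814 higher, 1595 lower) and by scaling on the pan-leukocyte genes (16 higher, 12961 lower). The median fold change of the 9 genes was -0.48, and -2.64 with scaling on the pan-leukocyte genes, where all genes shifted by -2.15. With 1 pool left out it ranged from -1.28 to -0.18.

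Signs turned in few cases. *Kit* was -0.0346 and *Hdc* -2.11 with scaling on the pan-leukocyte genes. With 1 pool left out, *Hdc* ranged from -0.18 (without *Rag1*-/- pool 2, and -0.06 without WT pool 6) to 0.30, *Cma1* from -1.51 to 0.38 (without *Rag1*-/- pool 2), and *Fcer1a* from -0.835 to 0.13 (without WT pool 5, and 0.10 without *Rag1*-/- pool 2). The cause was not tested. RLE scaling, library size alone, limma on the deposited signal and thinning left the number of the 9 genes called at 0. No paired analysis was possible because the genotypes share no pool number. The depth of *Rag1*-/- pool 2 limits *Fcer1a*, *Ms4a2* and *Tpsab1*, with 2, 7 and 17 counts there.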

Other observations

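The genes nearest in pattern to the 5 proteases and to *Kit* were ranked in the same way as for the 9 genes, a choice made after the values were seen. For the proteases the nearest were *Adamts7*, *Adh1*, *Mocs2*, *Gsto1* and *Ppa1*, at 0.0506 to 0.0647 from the mean protease profile. *Adh1*, which encodes an alcohol dehydrogenase, had 29.3, 29.2 and 33.2 CPM in WT and 11.1 and 25.0 CPM in *Rag1*-/- pools 2 and 7. For *Kit* they included *Ptpn22*, *Rcsd1*, *Cd69*, *Dock2* and *Ikzf1*, at 0.0458 to 0.107. *Ptpn22*, which encodes a phosphatase of lymphocytes, had 32.5, 101 and 72.1 CPM in WT and 305 and 191 CPM in *Rag1*-/-.

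*Tph1*, the tryptophan hydroxylase that mast cells use to make serotonin and that ILC2s are also known to express, had 3.25, 0.659 and 2.64 CPM in WT and 19.8 and 8.20 CPM in *Rag1*-/- pools 2 and 7. Both *Rag1*-/- pools were above every WT pool. By edgeR the difference of 2.69 on the log2 scale (SE 0.66) missed the threshold (adjusted p = 0.0582), whereas DESeq2 called it (adjusted p = 0.000649).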
